A study of Mus musculus with 31 samples.

Results

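Loss of Fmr1 was examined in cortex that already lacked S6K1, by setting the mRNA of mice deficient in both genes (DKO) against that of mice deficient in S6K1 only. All libraries that the labels give as polyadenylated mRNA of the DKO or the S6K1 genotype were taken, which gave 8 of the 31 libraries of the series, 4 of each genotype. The mice were 29 to 34 postnatal days old, and dissected cortex was lysed whole. The labels give both groups as deficient in S6K1, which Rps6kb1 encodes, so by label the 2 groups differ by the deficiency of Fmr1. Wild-type mice (WT) and mice deficient in Fmr1 with Rps6kb1 intact (FXS) were sequenced beside them, with 4 mRNA libraries each. The labels give neither the construction of the alleles nor the strain, and they do not say whether the libraries of a genotype came from separate animals. If they did not, the p-values below measure only the spread between these samples.

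Fmr1 encodes FMRP, an RNA-binding protein that associates with many neuronal mRNAs and is known for holding back their translation at synapses; its loss causes fragile X syndrome. S6K1 is a kinase below mTORC1 that phosphorylates ribosomal protein S6 and other parts of the translation machinery, and FMRP itself has been described as one of its substrates. An S6K1-null background therefore allows the mRNA changes that follow loss of FMRP to be read where this kinase is, by label, already missing.

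Each of the sequencing batches 5 to 8 held 1 library of every genotype, so DKO and S6K1 were compared within batches. Total counts were 13.9 to 17.05 M in DKO and 12.1 to 15.1 M (mega) in S6K1. Levels are given in CPM, a gene's counts scaled to the same total in every library, after TMM scaling, a correction for differences in library composition. Both batch 5 libraries stood apart from the rest of their genotype: their counts differed from those of the other 3 libraries with a chi-square per degree of freedom of 43.7 to 72.7, against 4.81 to 16.5 among the others. After removal of genotype means, the DKO and the S6K1 library of a batch deviated together, with correlations across genes of 0.71 in batch 5, 0.28 in batch 6, 0.24 in batch 7 and 0.34 in batch 8. Batch was therefore a term in the model.

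The targeted gene separated the groups in every batch. Fmr1 (chrX:68678536-68717963, mm10) stood at 82.6, 73.8, 65.8 and 69.1 CPM in the S6K1 libraries of batches 5, 6, 7 and 8. In the DKO libraries of the same batches it stood at 21.6, 14.3, 10.6 and 14.9 CPM. The groups did not overlap, and 941 counts remained over the DKO libraries against 4033 in S6K1. The mean fell from 72.8 ± 7.29 CPM (SD, n = 4) to 15.3 ± 4.56, a log2 fold change of -2.26 ± 0.117 (SE; edgeR adjusted p = 5.84e-11), and in ribosome footprints, the mRNA fragments protected by ribosomes, the change was -3.68. Rps6kb1 mRNA, in which both groups are labelled deficient, averaged 33.6 ± 6.91 CPM in S6K1 and 32.8 ± 5.18 in DKO, against 46.4 ± 6.83 in WT. Most of its mRNA counts thus remained, and they do not by themselves show the knockout; which part of the gene was altered is not given in the labels. Of the FMRP paralogs, Fxr1 averaged 108 ± 4.08 CPM in S6K1 and 103 ± 5.04 in DKO, and Fxr2 averaged 186 ± 9.24 and 177 ± 10.7. Neither passed the test (log2 fold changes -0.08 ± 0.0627 and -0.07 ± 0.0673, SE; edgeR adjusted p = 0.59 and 0.653).

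Besides Fmr1, few mRNAs passed the test, and in the fit of all 16 mRNA libraries most of those were higher in DKO. At a Benjamini-Hochberg adjusted p under 0.05 in edgeR's quasi-likelihood test, 55 of 14215 genes were called (0.387%), 45 of them higher (0.317%) and 10 lower (0.0703%). The changes were small: without Fmr1 the absolute log2 fold changes ran from 0.28 to 0.93, and the median over all 55 was 0.38, a shift of 29.5%. At an unadjusted p under 0.05 there were 2104 genes (14.8%), of which 1127 were higher and 977 lower. Of the 54 genes called besides Fmr1, 15 had libraries that did not overlap between the groups (3.03% of all genes tested). All 54 had the same sign in each of the 4 batches (20.9% of all genes tested). The test compared these same libraries within batches, so both counts follow in part from the choice of genes. The within-batch difference was largest in batch 7 for 28 of the 54 and smallest in batch 8 for 23.

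The number of genes called depended on single libraries and batches. With 1 library left out it was 5 without DKO replicate 2, DKO replicate 3 or S6K1 replicate 3 and 8 without S6K1 replicate 2. It was 18 without DKO replicate 4 and 392 without S6K1 replicate 4. Replicates 1 to 4 are batches 5 to 8. With a whole batch left out, 8 genes were called without batch 5, of which 5 were among the 55. There were 4 calls without batch 6, 1 without batch 7 and 552 without batch 8. DESeq2 called 354 and the model without a batch term 1. Higher calls outnumbered lower ones in 12 of the 19 alternatives; they did not in limma voom (4 and 4), without batch 5 (3 higher and 5 lower), without DKO replicate 2, DKO replicate 3 or S6K1 replicate 3 (2 and 3 each), and without batch 7 or the batch term, where Fmr1 was the 1 call. All 55 genes kept their sign in every alternative that tested them, Fmr1 alone was called in all 19 alternatives, and Fmr1, Panx2, Pls3 and Kctd4 kept their calls with any 1 of the 8 libraries left out. The fitted log2 fold changes of these 4 genes ran from -2.39 to -2.13, 0.46 to 0.63, -0.56 to -0.47 and -0.60 to -0.51 over all alternatives.

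Panx2 encodes a large-pore channel protein of the pannexin family that is abundant in brain. It lies on chromosome 15 (chr15:89059057-89073566) and stood at 103, 146, 129 and 167 CPM in the S6K1 libraries of batches 5 to 8. The DKO libraries held 149, 215, 216 and 201 CPM. The lowest DKO library, that of batch 5, lay within the range of the S6K1 libraries, while within each batch the DKO library was the higher. The log2 fold change was 0.53 ± 0.0715 (SE, edgeR adjusted p = 0.00103), with within-batch differences of 0.53, 0.56, 0.75 and 0.27. Without the batch term the adjusted p was 0.84, and without batch 7 it was 0.102.

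Pls3, which encodes the actin-bundling protein plastin 3, was lower. Its CPM were 139, 171, 163 and 149 in S6K1 and 93.5, 117, 109 and 114 in DKO, in batch order. Every DKO library lay below every S6K1 library. The log2 fold change was -0.52 ± 0.0725 (SE, edgeR adjusted p = 0.00103), and it was lost without batch 6 (0.0565), without batch 7 (0.102) and without the batch term (0.84). Kctd4, which encodes a protein with a BTB-type potassium channel tetramerization domain, stood at 33.0, 30.1, 27.3 and 26.4 CPM in S6K1 and at 23.3, 18.5, 17.8 and 19.1 in DKO. These groups did not overlap either, and the log2 fold change was -0.57 ± 0.0893 (edgeR adjusted p = 0.00498; 0.109 without batch 6, 0.102 without batch 7 and 0.84 without the batch term). Kctd4 lies inside the span of Gtf2f2, and as no source used here says whether counting used strand, reads of the 2 genes may not be told apart.

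Cd99l2, a membrane protein of the CD99 family, was higher. It stood at 19.4, 28.7, 32.1 and 31.8 CPM in S6K1 and at 33.2, 41.8, 43.5 and 41.5 in DKO, so that the groups did not overlap. The log2 fold change was 0.53 ± 0.0868 (SE, edgeR adjusted p = 0.00827), against 0.0536 without S6K1 replicate 2, 0.0615 without batch 5, 0.109 without batch 6, 0.102 without batch 7 and 0.84 without the batch term. The largest rise in proportion was that of Cort, the gene of cortistatin, a somatostatin-like neuropeptide of some cortical interneurons. Cort had 5.27, 6.15, 8.16 and 7.34 CPM in S6K1 and 8.08, 12.6, 14.5 and 13.6 CPM in DKO. Only the batch 5 library of DKO reached into the S6K1 range. Its log2 fold change was 0.85 ± 0.16 (SE, edgeR adjusted p = 0.0295), and the call was lost without DKO replicate 2 (0.12), DKO replicate 3 (0.175), DKO replicate 4 (0.0634), S6K1 replicate 2 (0.0748) or S6K1 replicate 3 (0.0768), without batch 6 (0.18) or batch 7 (0.251), and without the batch term (0.773).

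**Figure D1:**
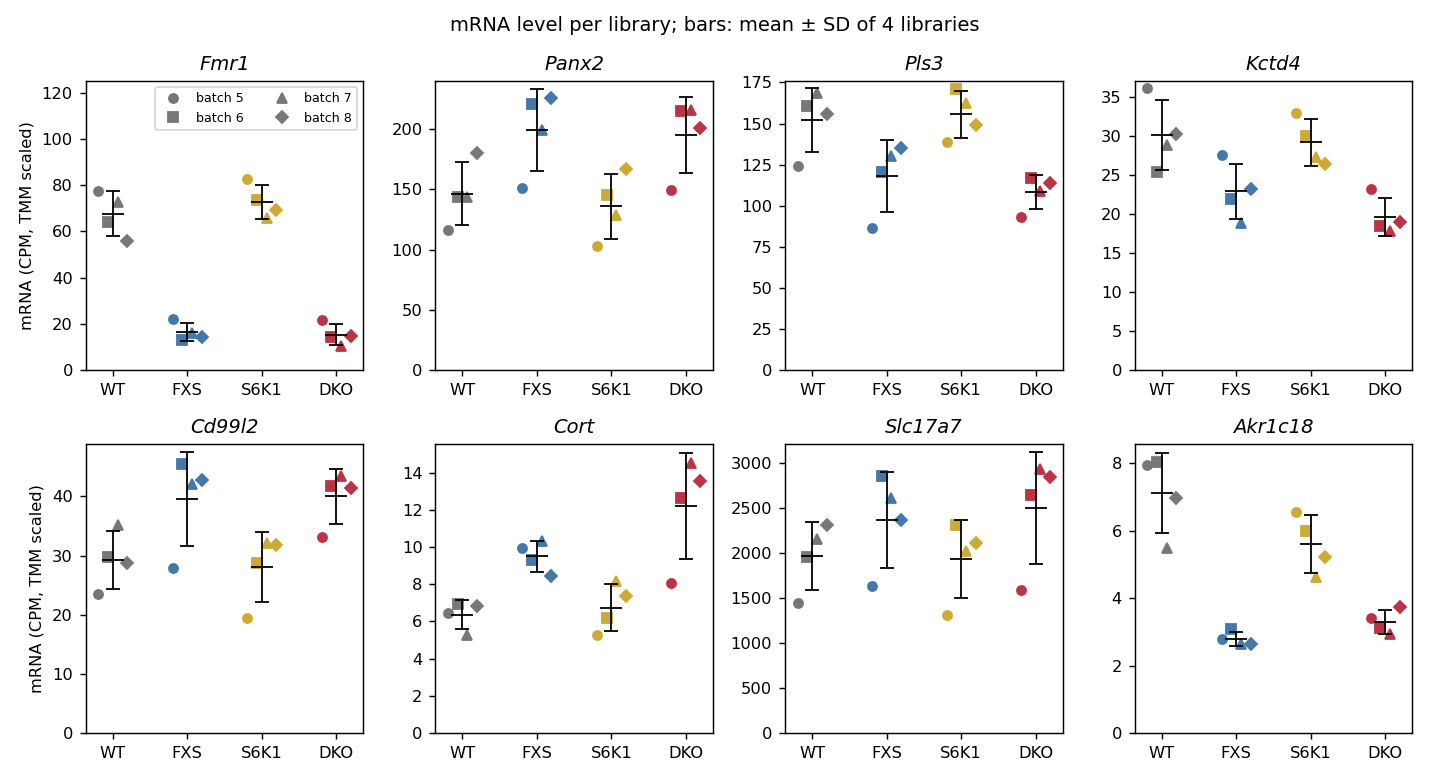
mRNA level (CPM, TMM scaled, linear axes from 0) of 8 genes in each of the 16 mRNA libraries, by genotype; marker shape gives the batch, and the bar is the mean with the SD over 4 libraries. Fmr1, Pls3, Kctd4 and Akr1c18 lie lower in every DKO library than in any S6K1 library and Cd99l2 lies higher, while Panx2, Cort and Slc17a7 overlap through their batch 5 libraries.

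The other genes that rose held several synaptic and membrane proteins, described here by known roles that were assigned after the calls were seen. Slc17a7, the vesicular glutamate transporter VGLUT1 of cortical excitatory neurons, stood at 1315, 2315, 2021 and 2109 CPM in S6K1 and at 1587, 2652, 2936 and 2843 in DKO. The ranges overlapped, but the DKO library was higher in all 4 batches, and the log2 fold change was 0.36 ± 0.075 (SE, edgeR adjusted p = 0.0387). The call held in 3 of the 8 fits with 1 library left out, and was lost without DKO replicate 2 (0.12), 3 (0.176) or 4 (0.0755), S6K1 replicate 2 (0.0594) or 3 (0.218), batch 5 (0.0791), 6 (0.109) or 7 (0.519), and the batch term (0.891). Further proteins of the synaptic vesicle or active zone were Svop (log2 fold change 0.39), Syngr1 (0.41), Ppfia3 (0.36) and Rims4 (0.35). Rims4 stood at 30.0 to 34.0 CPM in S6K1 and 38.7 to 42.0 in DKO. With 1 library left out, the calls of Svop, Syngr1, Ppfia3 and Rims4 held in 4, 2, 3 and 2 of 8 fits. Nsmf, a messenger between NMDA receptors and the nucleus, rose by 0.36, and Asic1, an acid-sensing ion channel, by 0.39. Their calls held in 3 and 1 of 8 such fits. Pip5k1c, which makes the membrane lipid PIP2, stood at 327 to 385 CPM in S6K1 and 401 to 459 in DKO (log2 fold change 0.33). Membrane transporters among the 45 were Slc39a3 for zinc (0.45), Slc27a4 for fatty acids (0.33), Slc45a1 for sugars (0.28) and Mfsd12 for lysosomal cysteine (0.45). The calls of these transporters held in 3, 2, 1 and 1 of 8 such fits. Zdhhc8, a palmitoyltransferase, rose by 0.38, and the tweety-family membrane proteins Ttyh1 and Ttyh3 by 0.32 and 0.35.

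A smaller set acts in the nucleus, in glycosylation or outside the cell. Celf5, an RNA-binding protein of neurons, stood at 80.7 to 115 CPM in S6K1 and 122.8 to 142 in DKO, without overlap (log2 fold change 0.42). Cbx6, a Polycomb subunit, rose by 0.36 and Btbd2, a BTB-domain protein, by 0.32, both without overlap. Among enzymes of glycan or anchor synthesis, B4galt2 rose by 0.33, Gal3st3 by 0.38 and Pigs by 0.34. The secreted growth factor gene Gdf1 rose by 0.48, and it is transcribed together with Cers1, so reads may be shared between them. Sprn, a prion-like protein, rose by 0.55 and overlaps Mtg1. The calls of Paqr4, Gas2l1, Lppr2, Dos, Klhdc8b, Cbx6, Rnft2, N28178, Mmp24 and Mfsd12 also lie on genes that overlap another protein-coding gene. In all, 13 of the 55 genes overlapped the span of another protein-coding gene in RefSeq (GRCm38.p6).

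Of the 10 genes that fell, 7 remain besides Fmr1, Pls3 and Kctd4. Ncl, the gene of nucleolin, a nucleolar protein of ribosome biogenesis, stood at 443, 509, 524 and 419 CPM in S6K1 and at 345, 417, 382 and 365 in DKO. The groups did not overlap (log2 fold change -0.33 ± 0.0631, edgeR adjusted p = 0.0299). Kif5b, a kinesin heavy chain that carries cargo along microtubules, averaged 284 ± 36.6 CPM (SD, n = 4) in S6K1 and 217 ± 22.0 in DKO (log2 fold change -0.38). Cyld, a deubiquitinase that is also found at the postsynaptic density, changed by -0.31, and Phyh, a peroxisomal enzyme of phytanic acid breakdown, by -0.30. The other 3 are expressed at a low level. Slc9a2, a sodium-proton exchanger, fell from 4.64 ± 1.07 to 2.50 ± 0.554 CPM, Ccdc171, a coiled-coil protein, from 4.83 ± 0.647 to 2.53 ± 0.599, and Akr1c18, the 20-alpha-hydroxysteroid dehydrogenase that inactivates progesterone, from 5.60 ± 0.854 to 3.30 ± 0.353. Their log2 fold changes were -0.89, -0.93 and -0.75, at edgeR adjusted p of 0.0464, 0.0469 and 0.0464. With 1 library left out, the calls of Slc9a2, Ccdc171 and Akr1c18 held in 2, 0 and 1 of 8 fits. Close relatives of Akr1c18 exist in the genome, and how reads matching several of them were counted is not given in the sources used here, so its level is uncertain.

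FXS against WT gives the same loss with S6K1 present, on libraries that share no sample with DKO and S6K1, although the batches and the estimate of spread are shared. It called 22 genes (0.155%). Of the 54 genes called in DKO against S6K1 besides Fmr1, 53 had the same sign in FXS against WT, and 45 of these had an unadjusted p under 0.05 there with the same sign, a combination met by 11.1% of all genes tested. All 45 higher genes kept their direction, as did 8 of the 9 lower ones, Slc9a2 being the exception. The changes were larger without S6K1 for 50 of the 54, and the median size of the change was 0.37 against 0.26 on the log2 scale. These genes were chosen by their size in DKO against S6K1, so a smaller value in the other comparison follows in part from the choice. In the reverse direction, 20 of the 21 genes called in FXS against WT besides Fmr1 had the same sign in DKO against S6K1, and 16 had an unadjusted p under 0.05 with it.

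Fitted on its own 8 libraries, DKO against S6K1 called 25 genes (0.18%) and FXS against WT 446 (3.2%). Of the genes tested in both of these fits, 16 were called in both and all 16 in the same direction, which is 66.7% of the DKO against S6K1 calls and 3.59% of the FXS against WT calls. They were Fmr1, Panx2, Pls3, Kctd4, Cd99l2, Cort, Zdhhc8, Celf5, Lppr2, Gas2l1, Slc39a3, Fam189b, Ttyh3, Paqr4 and Gdf1, which are among the 55, and Trp53inp2. Across 13812 genes the log2 fold changes of these 2 fits correlated with a Spearman rho of 0.43, over points that share batches, and 66.9% of genes had the same sign.

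**Figure D2:**
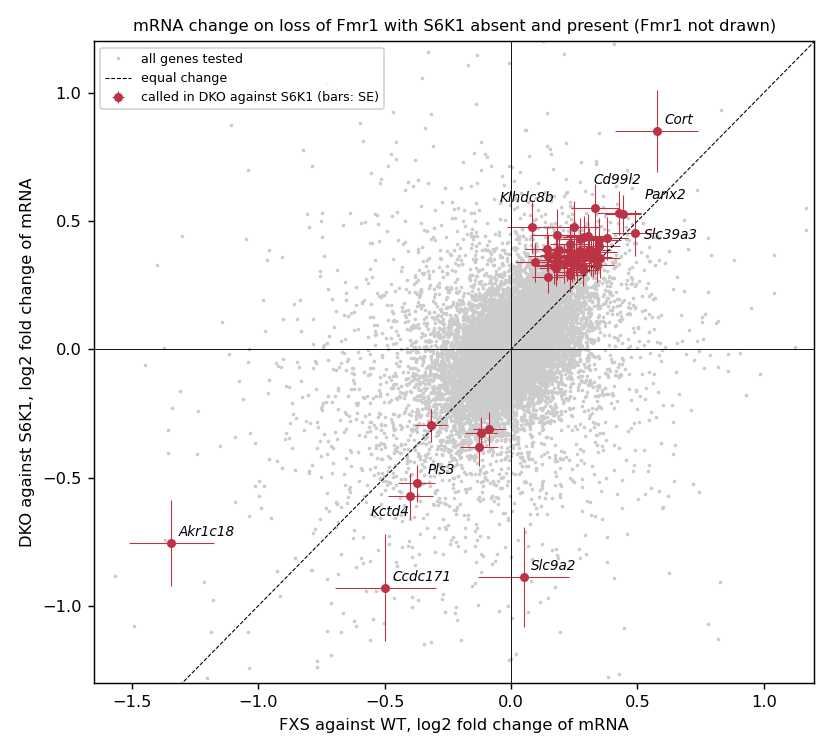
Log2 fold change of mRNA in DKO against S6K1 (vertical) and in FXS against WT (horizontal) for all genes tested (grey) and the 54 genes called besides Fmr1 (red, bars are SE); a few grey genes lie beyond the axes. All 45 higher genes lie in the upper right and most above the dashed line of equal change, and Slc9a2 is the red point on the opposite side of 0.

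Whether the effect of losing Fmr1 differs with S6K1 was tested as an interaction, the change in DKO against S6K1 minus that in FXS against WT. No gene was called in edgeR, nor in DESeq2 or limma voom, and 497 had an unadjusted p under 0.05 in edgeR (3.5%). The smallest p values were those of Pbx4, Pak4, Atp6ap1l, Mycbp and Slc9a2, each at an adjusted p of 1.00. Slc9a2 is the gene of these that was called in DKO against S6K1. It stood at 4.80 ± 0.607 CPM in WT and 5.06 ± 1.77 in FXS, with a difference between the 2 changes of -0.94 ± 0.265 (SE, edgeR unadjusted p = 0.00172). Akr1c18 changed by -1.34 ± 0.167 with S6K1 present and by -0.75 ± 0.167 without it, a difference of 0.59 (edgeR unadjusted p = 0.0203, adjusted p = 1.00). Klhdc8b, a kelch-repeat protein whose gene overlaps Ccdc71, had 20.7 to 25.2 CPM in S6K1 and 29.5 to 37.5 in DKO. It averaged 23.6 ± 2.96 in WT and 25.0 ± 0.821 in FXS. Its difference between changes was 0.39 (edgeR unadjusted p = 0.0101, adjusted p = 1.00). Of the 54 genes, 7 had an interaction p under 0.05 before adjustment, against 3.5% of all genes. The 54 were chosen by their change in DKO against S6K1, which is part of the interaction. Small interaction p values among them thus follow in part from the choice.

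The called genes of chromosome X other than Fmr1 lie on its flank. Within 10 Mb of Fmr1, 82 other genes were tested, of which Cd99l2 (chrX:71420060-71492866, 2.74 Mb away) rose and Pls3 (chrX:75785653-75875182, 7.11 Mb away) fell, or 2.44%. The rest of chromosome X gave 0 calls among 407 genes (16.5% at an unadjusted edgeR p under 0.05; DESeq2 was not counted by region), and the autosomes 52 among 13675 (0.38%). At an unadjusted p under 0.05 the flank held 20 genes (24.4%) against 14.7% of autosomal genes. Near the threshold on the flank was Gabra3, a GABA-A receptor subunit that lies 3.75 Mb away, at -0.34 (edgeR adjusted p = 0.0554). Of the 5 tested genes on each side of Fmr1 none was called, and Ids, a lysosomal sulfatase, had the smallest p of them (log2 fold change 0.26, edgeR adjusted p = 0.0816). Cd99l2 and Pls3 were called with S6K1 present too, at 0.43 and -0.37. The part of linkage to the targeted allele in these calls was not tested.

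**Figure D3:**
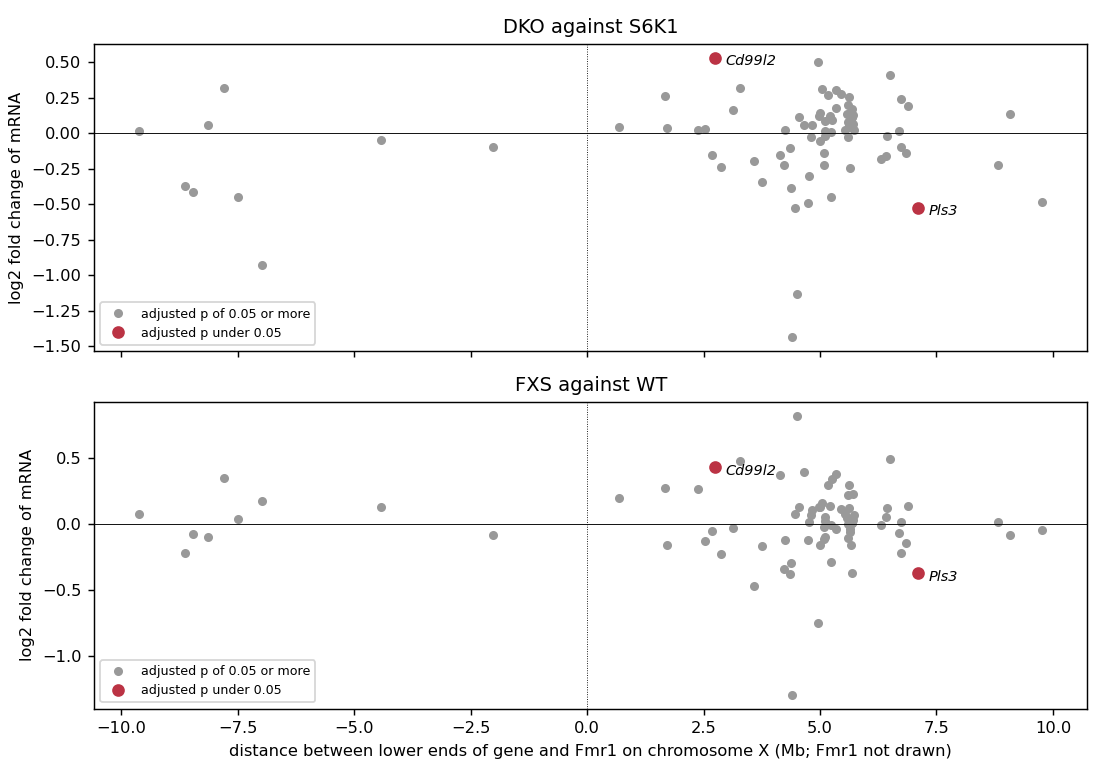
Log2 fold change of mRNA in DKO against S6K1 (upper) and FXS against WT (lower) for the 82 genes tested within 10 Mb of Fmr1, by distance in Mb between the lower coordinates of each gene and Fmr1; red marks an adjusted p under 0.05 and Fmr1 is left out. Cd99l2 lies above 0 and Pls3 below 0 in both comparisons, and they are the called genes of this window.

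FMRP-bound brain mRNAs, a list of 71 transcripts known to associate with FMRP, held no called gene in DKO against S6K1. At an unadjusted p under 0.05, 14 were higher and 6 lower, against 7.93% and 6.87% of all genes, and the median log2 fold change was 0.05 against -0.00348 over all genes. With S6K1 present, 41 were higher and 0 lower at this p, against 6.77% and 5.95% of all genes, and the median was 0.18. The difference between the comparisons had an unadjusted p under 0.05 in 12 of the 71, all lower without S6K1 (1.65% of all genes), but none passed adjustment. By batch the median in DKO against S6K1 was 0.18, 0.09, 0.13 and -0.15 in batches 5, 6, 7 and 8, so that batch 8 had the opposite sign to the others, while in FXS against WT it ran from 0.12 to 0.29. Without batch 5 the fitted median was 0.0083, with 10 higher and 7 lower. The members of smallest p were Adcy1, an adenylyl cyclase (log2 fold change 0.32, edgeR adjusted p = 0.0554), Lrp3 (0.26, 0.0782), Shank2, a postsynaptic scaffold (0.24, 0.125), and Dlgap4, another (0.21, 0.129).

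Housekeeping lists also differed between batches, in the opposite order to the FMRP-bound list. Of 79 cytosolic ribosomal protein mRNAs, 1 was higher and 1 lower (Rpl7, -0.19) at an unadjusted edgeR p under 0.05. Over all genes the shares were 7.93% and 6.87%. The median of the list was -0.01. In FXS against WT 38 were lower at this p, against 5.95% of all genes, and the median was -0.18. The batch medians in DKO against S6K1 ran in order from -0.29 over -0.03 and 0.02 to 0.27, so a median near 0 is made of batches that point in opposite directions, and without batch 5 it was 0.07. Mitochondrial ribosomal proteins went from -0.17 in batch 5 to 0.21 in batch 8 and respiratory chain genes from -0.13 to 0.23, with Atp5g1 (0.27) and Atp5d (0.26) as the members of smallest p. Proteasome subunits had 0 higher and 5 lower of 37 at this p (7.93% and 6.87% of all genes). Their median was -0.06, with 5 of 37 members above 0 (6978 of 14215 over all genes), but it was 0.13 in batch 8.

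Splicing factors of the SR, hnRNP and Luc7l families lay at or below 0 in the median of every batch. None of the 41 was called, while 15 were lower and 0 higher at an unadjusted p under 0.05 (6.87% and 7.93% of all genes), with medians of -0.01, -0.07, -0.17 and -0.14 by batch and of -0.10 over all. Their summed level was 6532 to 6787 CPM in the S6K1 libraries and 6050 to 6371 in DKO, without overlap. Hnrnpr (log2 fold change -0.26, edgeR adjusted p = 0.0553), Hnrnpd (-0.26, 0.0593) and Hnrnpu (-0.25, 0.0621) lay just outside the threshold. Hnrnpu, a nuclear scaffold and splicing protein, stood at 486 to 532 CPM in S6K1 and 400 to 464 in DKO. In FXS against WT this list had 6 lower and 1 higher at an unadjusted p under 0.05 (5.95% and 6.77% of all genes) and a median of -0.08. Of 61 chromatin regulators, 11 were lower and 1 higher at an unadjusted p under 0.05 without S6K1 (median -0.04). With S6K1 present, 10 were higher and 0 lower at this p (median 0.06), against 6.77% and 5.95% of all genes. Of the 61 regulators, 5 had an interaction p under 0.05 before adjustment, all lower without S6K1 (1.65% of all genes), but none passed adjustment. Their batch medians without S6K1 were 0.03, 0.01, -0.04 and -0.23, so that the lower values lay mostly in batch 8, and without batch 5 the fitted median was -0.08. Kdm3a, a histone demethylase, had the smallest p (log2 fold change -0.34, edgeR adjusted p = 0.0502), and Upf2, a nonsense-mediated decay factor, changed by -0.31 (0.0621).

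Among lists of neuronal channels, receptors and synaptic proteins, Slc17a7 was the 1 called gene. Counts at an unadjusted p under 0.05 are to be read against 7.93% higher and 6.87% lower over all genes. Potassium channels had 14 of 74 higher and 0 lower at an unadjusted p under 0.05 and a median of 0.08, led by Kcnc4 (log2 fold change 0.24), Kcnj9 (0.32), Kcnh3 (0.22) and Kcnn1 (0.29), whose edgeR adjusted p ran from 0.0820 to 0.173. Their batch medians were 0.21, 0.10, 0.11 and -0.0030, and without batch 5 they had 8 higher and 1 lower and a median of 0.05. Glutamate receptors and Homer genes had 4 of 28 higher and 0 lower (median 0.09; 0.24 in batch 5 and 0.01 to 0.06 in the others), among them Grik5 at 0.23, and without batch 5 they had 1 higher and a median of 0.03. GABA-A receptor subunits had 0 of 15 higher and 1 lower (median 0.02, and -0.06 without batch 5), and sodium and calcium channels 4 of 29 higher and 0 lower (median 0.03, and -0.0053 without batch 5). In the synaptic vesicle list Slc17a7 was called, and 11 of 43 were higher and 1 lower at an unadjusted p under 0.05. There Syp, synaptophysin, went from 831 ± 267 to 999.5 ± 271 CPM (log2 fold change 0.29, edgeR adjusted p = 0.0565) and Rims3 and Cplx3 had 0.32 and 0.42. Postsynaptic scaffolds had 7 of 26 higher and 0 lower, with Shank2, Dlgap4, Nlgn2 (0.27) and Dlgap3 (0.24) as the members of smallest p. Cholesterol synthesis genes had 21 of 25 members above 0, against 6978 of 14215 over all genes. At an unadjusted p under 0.05, 3 were higher, among them Ebp at 0.33 and Srebf2 at 0.22. The median of the list was 0.09, and 0.04 without batch 5.

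**Figure D4:**
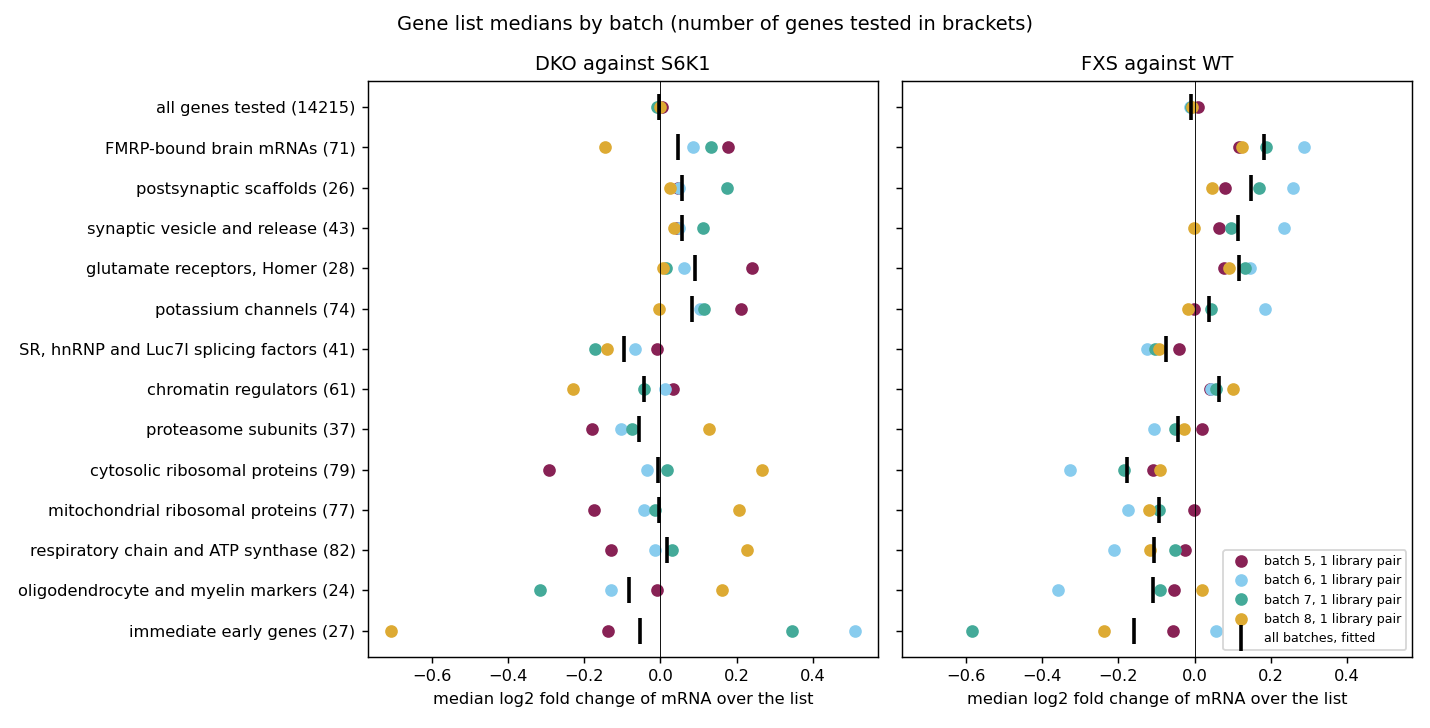
Median log2 fold change of mRNA over each gene list, within each batch (coloured points, 1 library of each genotype) and fitted over all batches (black bar), for DKO against S6K1 (left) and FXS against WT (right). Ribosomal and respiratory lists spread from below 0 in batch 5 to above 0 in batch 8 on the left, whereas the splicing factor list lies at or below 0 in all 4 batches on both sides.

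In whole cortex, fewer cells of a type and less RNA per cell cannot be told apart. Interneuron markers pointed in both directions: Cort was called, Lhx6 (log2 fold change 0.46), which encodes a transcription factor of somatostatin and parvalbumin cells, and Sst (0.26), somatostatin, were higher, and Pvalb (-0.33) and Gad1 (-0.26) lower, at unadjusted edgeR p under 0.05 and adjusted p of 0.117, 0.152, 0.106 and 0.169. The summed level of the 27 markers was 1478 to 2357 CPM in S6K1 and 1446 to 2360 in DKO. Deep layer markers had 6 of 18 higher and 0 lower at an unadjusted p under 0.05, against 7.93% and 6.87% of all genes. Cplx3 and Ctgf (0.38) led them, and 3 were higher without batch 5. Superficial layer markers had 1 of 10 higher and 2 lower at this p, among them Rasgrf2 (-0.39, edgeR adjusted p = 0.0502). Oligodendrocyte and myelin markers had 1 of 24 higher and 7 lower at this p. Their median was -0.08 and ran from -0.32 in batch 7 to 0.16 in batch 8, and Aspa had the smallest p (-0.53, edgeR adjusted p = 0.0621).

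Markers of blood and of neighbouring brain regions were read beside these results. The 12 blood markers in the counts summed to 975 to 2584 CPM in S6K1 and 669 to 992 in DKO. Of these, 6 were tested, with a median log2 fold change of -1.06 and Hba-a2 at -1.08 (edgeR adjusted p = 0.304). Hippocampal markers had 0 of 12 higher and 4 lower at an unadjusted p under 0.05, against 7.93% and 6.87% of all genes. They had a median of -0.38, with Dsp at 2.01 CPM in S6K1 and 0.822 in DKO and Lct at 4.50 and 2.49. Their summed level was 258 to 385 CPM in S6K1 and 263 to 334 in DKO. The 12 choroid plexus and ependymal markers in the counts, of which 9 were tested, summed to 26.1 to 257 CPM in S6K1 and 21.2 to 201 in DKO. Summed markers of microglia (309 to 1061 against 358 to 1038 CPM), astrocytes (1913 to 3431 against 1847 to 3477) and endothelium (107 to 296 against 113 to 287) overlapped between S6K1 and DKO. The part of blood content or dissection in the called genes was not tested. Of the 37 lists described, 2 held a called gene besides Fmr1.

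Calls in each direction were spread unevenly over gene length and level. Genes were divided by genomic span in RefSeq into 5 equal groups of 2834. From shortest to longest these held 9, 20, 7, 9 and 0 higher calls and 0, 3, 1, 3 and 3 lower calls. Over all genes 0.317% were called higher and 0.0703% lower. The median log2 fold change was 0.05 in the shortest and -0.03 in the longest group, while in FXS against WT it was -0.04 in the shortest and 0.03 in the longest. Within DKO against S6K1, batch 5 ran the other way, from -0.05 in the shortest to 0.06 in the longest group, while batches 6, 7 and 8 ran from 0.05, 0.08 and 0.10 to -0.03, -0.05 and -0.07. By mean level, 28 higher and 5 lower calls lay in the most highly expressed of 5 equal groups, where a given fold change rests on more counts. The part of gene length in the calls was not tested.

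Ribosome footprints of the same genotypes had 3 libraries each, in batches 1, 3 and 4 for DKO and 1, 2 and 3 for S6K1. Pairing by batch was thus incomplete. The footprints gave no call for the genes called in mRNA other than Fmr1. Fmr1 was the 1 gene called there (0.00717% of 13953), and 1210 had an unadjusted edgeR p under 0.05 (8.67%). Of the 54 other genes, all tested in footprints, 21 had the same sign, and none had an unadjusted p under 0.05 in either direction. Over all genes tested in both assays the same sign was found in 43.2%. The 45 genes higher in mRNA had a median footprint log2 fold change of -0.07. Panx2 was at -0.07 ± 0.235 (SE), Slc17a7 at -0.17 ± 0.162 and Pls3 at -0.20 ± 0.131. The footprint level of Panx2 was low, at 5.76 to 10.5 CPM in S6K1 and 7.08 to 8.46 in DKO. That of Slc17a7 ran from 537 to 595 CPM in S6K1 and from 382 to 546 in DKO, with overlap. The footprint median was 0.02 for splicing factors and 0.12 for proteasome subunits. It was -0.07 for FMRP-bound brain mRNAs, -0.10 for potassium channels and -0.17 for glutamate receptors and Homer genes. Each of these had the opposite sign to the mRNA median. Some other lists kept the sign, such as respiratory chain genes (0.07) and oligodendrocyte and myelin markers (-0.22).

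**Figure D5:**
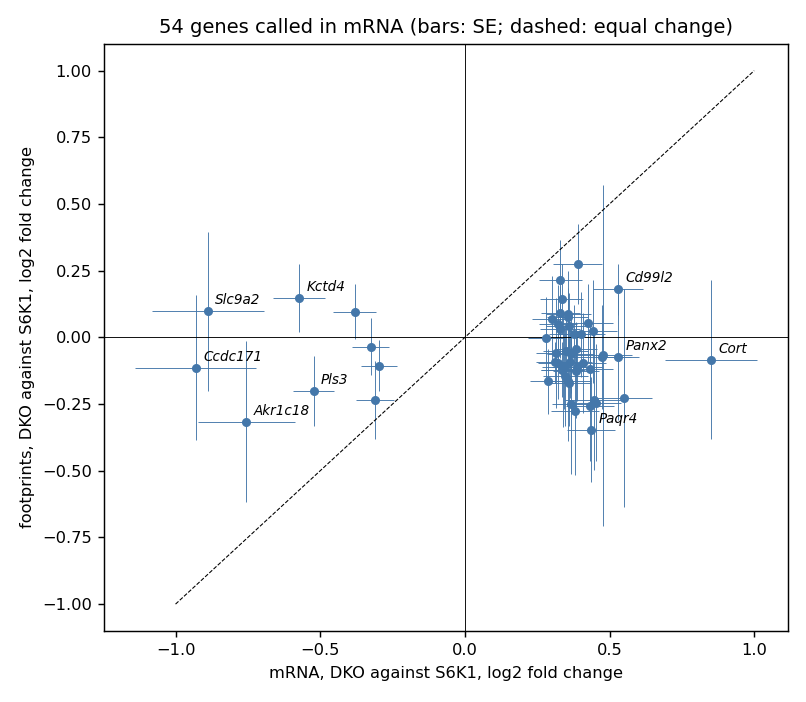
Log2 fold change in footprints (vertical) against that in mRNA (horizontal), DKO against S6K1, for the 54 genes called in mRNA besides Fmr1, with bars of 1 SE and a dashed line of equal change. Most points lie near 0 on the footprint axis, and 21 of the 54 have the same sign on both axes.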

How the data were processed

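Footprints and polyadenylated mRNA of mouse cortex were sequenced, the latter from TruSeq libraries per the labels. The deposited tables hold raw counts per gene symbol, over coding sequence by the table's name; the authors' tools are listed in the submitters' processing notes as cutadapt 2.0, Bowtie2, TopHat2 and RSEM, with build mm10 and no role or order. Strand use in counting is not given in the sources used here. Groups and batches came from the labels. The mRNA replicates pair by batch, while the footprint batches are unbalanced.

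All 16 mRNA libraries were fitted in edgeR 4.0.16 (R 4.3.3) with genotype and batch, filterByExpr, TMM factors (0.956 to 1.07 in the 8 libraries) and the robust quasi-likelihood F-test with Benjamini-Hochberg adjustment over 14215 genes; footprints were fitted likewise over 15 libraries. SE was derived from F. Within-batch log2 differences used a pseudocount of 0.5 CPM. RefSeq (GRCm38.p6) placed 99.7% of genes. In simulated counts of 14215 genes the fit recovered 14 of 67 changes of 1.25-fold (20.9%), 47 of 67 of 1.5-fold (70.1%) and 56 of 66 of 2-fold (84.8%). Each gene was drawn independently, so shifts that many genes share within a library were not simulated. Alternatives were DESeq2 1.42.0, limma 3.58.1 (voom), RLE factors, other filters, no batch term, the 2 genotypes alone, and fewer libraries; leaving out batch 6, 7 or 8, list medians without batch 5 and gene span were added after the data were seen. Lists by protein length were not run.

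The comparison, its genes and the 37 lists were chosen with earlier results of these data known; the authors' comparison tables were not used. Named genes were Fmr1, Rps6kb1, Fxr1 and Fxr2, up to 12 called genes of smallest adjusted p and 5 of largest change in each direction, up to 15 called in both 8-library fits, 5 of smallest interaction p, 4 members of smallest p in each list and the neighbours of Fmr1; the other called genes were named after their values were seen. Single members of lists that are not named are not reported here.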

Additional observations from a re-analysis of the deposited data

Results flagged for a closer look

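In each group of 4 libraries, the highest or lowest library was set against the others by Dixon's ratio of gap to range, which chance alone exceeds in about 1 in 20 groups. Of 248 groups, 29 held such a library, and in 26 of these it was replicate 1, the library of batch 5. The TMM factor of the DKO library of that batch, 1.07, was among them.

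The S6K1 library of batch 5 was lower than the other S6K1 libraries in Paqr4 (21.6 CPM), Syngr1 (97.2), Rnft2 (26.5), Slc27a4 (71.5), Ttyh1 (318), Ppfia3 (256) and Syp (433, against 931 to 993 in the others). It was higher in N28178 (129 CPM) and Upf2 (92.7). The DKO library of batch 5 was lower than the other DKO libraries in Gas2l1 (89.9 CPM), Lppr2 (140), Tbc1d9b (351), Slc27a4 (95.3), Ttyh1 (416), Gal3st3 (46.6), Dgcr2 (74.4), Nov (109), Pigs (53.2), Syp (593, against 1131 to 1144), Kcnh3 (253), Grik5 (312), Ctgf (13.7) and Dlgap3 (512). It was higher in Cyld (117 CPM) and Ash1l (192). The other libraries marked in this way were DKO replicate 3 in Klhdc8b (37.5 CPM, against 29.5 to 30.8 in the others) and DKO replicate 4 in Slc9a2 (3.32, against 2.11 to 2.31) and Lct (3.50, against 2.03 to 2.25).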

How the results depend on the processing

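The 55 calls in DKO against S6K1 became 354 with DESeq2 (51 of the 55 among them), 126 with RLE factors (all 55) and 8 with limma voom. There were 29 at a mean CPM of at least 5, 25 with the 2 genotypes alone and 8 without batch 5 (5 of the 55). Fits without batch 6, 7 or 8, added after the data were seen, gave 4, 1 and 552. Without the replicate block, that is with no batch term, 1 gene was called, and the pairing by batch is in the labels. The 22 calls in FXS against WT became 204 with DESeq2, 42 with RLE factors, 9 with voom, 35 without a filter, 446 with the 2 genotypes alone, 8 without batch 5 and 2 without the block. With 1 library left out the counts ran from 5 to 392 (DKO against S6K1), from 2 to 86 (FXS against WT), from 1 to 3 (the 1 footprint call, 21 with DESeq2) and stayed at 0 for the interaction. The cause of these shifts was not tested. All 55 called genes kept their sign, and 35 of 67 uncalled genes followed passed in at least 1 alternative. The sign reversed for 2 uncalled genes near 0: Rps6kb1 (-0.03) was 0.0059 without batch 5, 0.0055 without batch 6 and -0.0762 to 0.0224 with 1 library left out, and Atp6ap1l (0.01) was -0.0039 without batch 7 and -0.0141 to 0.0506 with 1 library left out. With 4 libraries a group, 20.9% of simulated 1.25-fold changes were recovered, so changes of that size were mostly missed in the simulation. It did not hold shifts that many genes share within a library.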

Other observations

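Genes of the S6K1 and mTORC1 pathway held no call among 22 members. Pdcd4, a translation inhibitor that S6K1 marks for degradation, had a log2 fold change of -0.26 (edgeR adjusted p = 0.0686), Akt1s1, an mTORC1 inhibitor subunit, 0.33 (0.106) and Rictor, a subunit of mTORC2, -0.20 (0.291). Among FMRP family members and partners, Cyfip1, which links FMRP to actin regulation, was at -0.17 (edgeR adjusted p = 0.211) and Pura at 0.23 (0.252).

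Immediate early genes, which follow recent neuronal activity, had batch medians of -0.14, 0.51, 0.34 and -0.71 in batches 5 to 8. Of 27 members, 1 had an unadjusted edgeR p under 0.05, against 14.8% of all genes. Tnnc1, a troponin gene, stood at 29.7 CPM in S6K1 and 21.1 in DKO (log2 fold change -0.48, edgeR adjusted p = 0.0637), and was called in FXS against WT at -0.80.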
